A study of Mus musculus with 2 samples.

Results

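The Sim1, Tbx15 and Agtr2 mesenchyme of the mouse genital tubercle was a set of 2215 cells among the 25346 cells kept from 2 single-cell RNA libraries, 827 of 12192 in the male library and 1388 of 13154 in the female library. The genital tubercle is the bud of the embryo from which the external genitalia grow out. Each library was made from tubercles of 3 wild-type C57BL/6 embryos at embryonic day 14.5 (Theiler stage 22), pooled by sex and drawn from 2 litters. The tissue had no further treatment beyond a wait in medium for genotyping and digestion with collagenase, and all embryos shared this. The comparisons are of these cells with a reference of other kept cells, and of the male with the female library. With 1 pooled library per sex, differences between embryos cannot be told apart from differences between the sexes, and no test between libraries was possible.

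The cells were chosen by their own transcripts. Kept cells had at least 4000 unique molecular identifiers (UMIs), at least 500 genes, at most 10% mitochondrial UMIs and no UMI of Epcam, Cdh5, Sox10 or Ptprc, which mark epithelium, endothelium, glia and blood-derived cells. Members had at least 1 UMI of 3 or more of 6 genes, Sim1, Tbx15, Agtr2, Sostdc1, Shox2 and Ezr, with Sim1 or Agtr2 among them. Reference cells, 10119 male and 10044 female, had at most 1 of the 6 genes detected. No muscle or erythroid gene was used to leave cells out, so the reference is not limited to mesenchyme. The 1246 male and 1722 female cells in between belonged to neither group. All differences between members and reference cells are therefore descriptions of groups drawn from the same counts.

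The 6 genes have different roles. Sim1 encodes a bHLH-PAS transcription factor, known for its requirement in neurons of the hypothalamic paraventricular nucleus, that binds DNA with an ARNT partner at a central midline element. Tbx15 encodes a T-box factor that shapes the skeleton and the dorsoventral coat pattern of the mouse, and Shox2 a homeobox factor needed in the proximal limb and the sinoatrial node. Agtr2 encodes the type 2 receptor of angiotensin II, a G protein-coupled receptor abundant in fetal mesenchyme. Sostdc1 is a secreted antagonist of BMP ligands and a modulator of Wnt signalling. Ezr encodes ezrin, which ties membrane proteins to cortical actin.

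The promoters of Sim1 and Agtr2 are shown because every member had a transcript of at least 1 of the pair. The sequences come from RefSeq on build GRCm38.p6 and run from 250 bases before to 50 bases after the annotated start. Both lie on the plus strand, Sim1 at chr10:50895401-50895700 and Agtr2 at chrX:21484374-21484673. GENCODE M21 starts both genes further upstream, so that the whole Sim1 window lies inside the gene as given there. Capitals mark TTTATA, the reverse complement of the TATA box letters TATAAA.
Sim1: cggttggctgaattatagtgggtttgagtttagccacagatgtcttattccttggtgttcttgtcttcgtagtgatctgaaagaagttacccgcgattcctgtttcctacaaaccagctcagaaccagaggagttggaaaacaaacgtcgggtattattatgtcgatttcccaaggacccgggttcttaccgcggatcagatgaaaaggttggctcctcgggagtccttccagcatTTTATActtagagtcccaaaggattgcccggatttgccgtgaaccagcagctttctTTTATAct
Agtr2: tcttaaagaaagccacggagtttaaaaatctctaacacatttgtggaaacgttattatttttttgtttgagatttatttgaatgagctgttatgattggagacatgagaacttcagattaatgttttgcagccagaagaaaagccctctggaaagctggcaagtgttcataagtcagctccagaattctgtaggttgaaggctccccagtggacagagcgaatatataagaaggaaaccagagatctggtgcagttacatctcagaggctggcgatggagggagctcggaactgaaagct
The Sim1 window holds the letters in capitals at 2 places, starting 14 bases before the start and at base 43 after it. Both places match on the strand opposite to the gene. The Agtr2 window holds none of these exact letters on either strand, but it has the near match tatataa before the start. The exact letters therefore do not decide which of these promoters has a TATA box. GC content was 46.0% in the Sim1 window and 41.3% in the Agtr2 window, against a median of 52.7% over 32851 promoters of the same length. Both strands of 4 of the 6 genes' promoters, those of Sim1, Agtr2, Shox2 and Ezr, were searched for 3 motifs, none of which contains another. The central midline element TACGTG was in 0 of the 4 and in 3.23% of all promoters, and the T-box site AGGTGT was in 0 of the 4 and in 13.7% of all. TATAAA was in 2 of the 4 and in 13.6% of all. A match of letters is a description of the window and not of a bound site.

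The libraries held 130105692 male and 144515562 female UMIs in all. Members held 6873794 male and 13113036 female UMIs, with a median of 7236 and 7742.5 UMIs and 2670 and 2826.5 genes per cell. Reference cells were shallower, with a median of 5697 male and 5977 female UMIs and 2265 and 2364.5 genes. The median mitochondrial share was 6.34% and 6.44% in male and female members and 6.69% and 6.68% in reference cells. The libraries shared 47 kept barcodes, none of them members. The sexes matched the labels: members had 2 male and 17196 female UMIs of Xist, and 391 male and 0 female UMIs of Ddx3y. Listed markers of mesenchyme were present in members. Of 10 listed, 3 had a log2 fold of members over reference of at least 1 in both libraries and 0 of at most -1. The log2 fold was above 0 in both libraries for 7 of the 10 and below 0 in both for 1. The summed level of 10 such markers was 6183 CPM (UMIs per 1e+06 UMIs of the group's sum) in male members against 4198 CPM in male reference cells, and 6219 CPM in female members against 3935 CPM in female reference cells. Twist2, a bHLH factor of dermal and other mesenchyme, was at 485.8 CPM in male members and 105.6 CPM in male reference cells, and at 398 CPM in female members and 102 CPM in female reference cells.

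Of the genes of the rule, Sim1 (chr10:50894754-50989152 on mm10, plus strand) had 985 UMIs in male members, 143.3 CPM, against 2.87 CPM in male reference cells. In female members Sim1 had 2373 UMIs, 181 CPM, against 3.26 CPM in female reference cells. The log2 fold of members over reference was 5.64 in male and 5.80 in female cells, with exact 95% intervals, which cover counting error only here and below, of 5.42 to 5.87 and 5.60 to 5.99. A UMI of Sim1 was found in 68.1% of male and 76.7% of female members. Thus 31.9% of male and 23.3% of female members qualified without it, and 14.0% and 24.2% had 3 or more UMIs.

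Tbx15 (chr3:99240381-99354259, plus strand) was at 58.0 CPM in male members against 0.875 CPM in male reference cells, and at 84.2 CPM in female members against 1.12 CPM in female reference cells. Of the 6 genes it was detected in the fewest members. A UMI was found in 33.5% of male and 48.7% of female members, and only 3.14% and 7.56% had 3 or more. Agtr2 (chrX:21484544-21489164, plus strand) was at 115.5 CPM in male members and 3.57 CPM in male reference cells. In female members Agtr2 was at 131.2 CPM, against 4.47 CPM in female reference cells, and it was detected in 56.8% of male and 60.4% of female members. Shox2 was detected in 88.1% and 90.1% of members, more widely than any other gene of the rule, at 283.5 CPM in male members against 28.5 CPM in male reference cells and 323.8 CPM in female members against 34.2 CPM in female reference cells. Ezr was at 242.5 and 216.8 CPM in male and female members, against 11.3 and 10.4 CPM in reference cells. Sostdc1 was at 175.9 and 175.3 CPM in male and female members, against 11.2 and 10.3 CPM in reference cells.

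The genes differed in the part of their UMIs that lay in members. The rule itself partly sets these parts, since every member had to have Sim1 or Agtr2 and none of the other genes was required. Members held 62.1% of the Sim1 UMIs of all kept male cells and 70.7% of those of kept female cells, and 64.1% and 74.5% of the Agtr2 UMIs. Their part of the Shox2 UMIs was lower, 30.9% in male and 41.0% in female cells. Free RNA in droplets and doublets can both add to such detection, and their parts were not tested. Among barcodes with at least 2 UMIs of the endothelial gene Cdh5, which should lack Sim1, a Sim1 UMI was found in 3.59% of 167 male and 3.57% of 112 female barcodes, at a median of 14871 and 12895 UMIs. In reference cells the Sim1 share was 1.39% in male and 1.67% in female cells, below that floor and fixed by the rule. Sostdc1 and Ezr were not limited to mesenchyme. Among barcodes with at least 2 UMIs of Epcam, Sostdc1 was detected in 49.1% of 161 male and 39.1% of 115 female barcodes, and Ezr in 55.9% and 57.4%. Sim1 was detected in 2.48% of these male and 14.8% of these female barcodes, Agtr2 in 3.11% and 13.9%, and Tbx15 in 0 male barcodes and 16.5% of female barcodes. Doublets were not removed, and their part in the female shares was not tested.

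Across all kept cells the 6 genes tended to be detected in the same cells. Of cells with a Sim1 UMI, 19.9% of male and 33.7% of female cells also had a Tbx15 UMI, against 3.004% of male and 4.39% of female cells without Sim1. Agtr2 was found in 22.3% of male and 32.4% of female cells with Sim1, against 5.18% and 6.26% of cells without it. Members were deeper than reference cells, and detection moves with depth. When each cell was thinned to 4000 UMIs, 404 male cells (3.31%) and 791 female cells (6.01%) still met the rule.

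**Figure D1:**
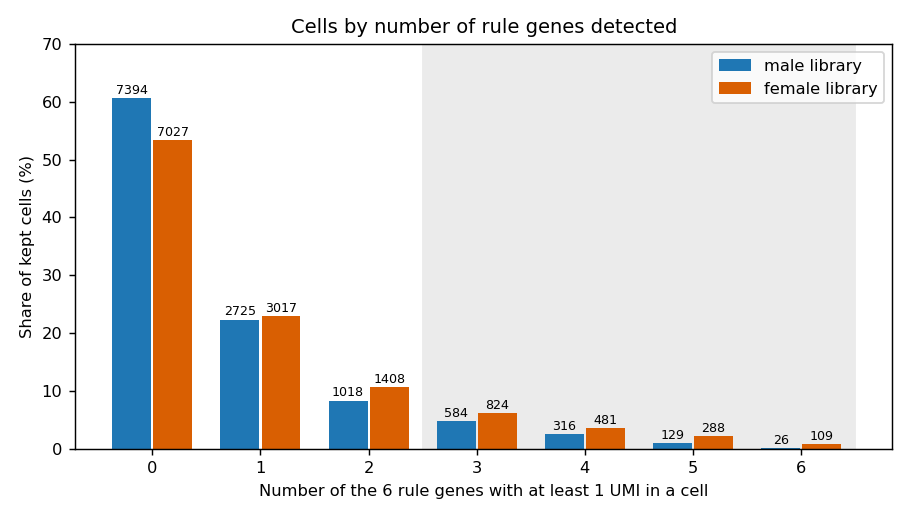
Share of kept cells (%) by the number of the 6 rule genes with at least 1 UMI, with male bars left of female bars and the number of cells written on each bar. The shaded range of 3 or more genes holds fewer cells at each step, down to 26 male and 109 female cells with all 6.

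Beyond the 6 genes, members had higher levels of Igf1, Nt5e, Irx1, Hlf and Cd34 among others, and lower levels of Msx, Dlx and other genes, than the reference cells. The count minimum was 100 UMIs, summed over both groups in each library, and 11987 genes reached it. Of these, 287 (2.39%, the 6 rule genes included) had a log2 fold of members over reference of at least 1 in both libraries, and 334 (2.79%) of at most -1. These are called higher and lower below, and the rule genes are left out of the gene lists that follow. Over all of these genes the median log2 fold was 0.0019 in male and 0.021 in female cells. The insulin-like growth factor gene Igf1 (chr10:87858265-87937042, plus strand) was among the 12 genes named for the highest folds. It was at 363.4 CPM in male members against 40.2 CPM in male reference cells, a log2 fold of 3.18 (95% interval 3.098 to 3.26). In the female library it was at 294.7 CPM in members against 26.6 CPM in reference cells, a log2 fold of 3.47 (3.39 to 3.55). A UMI of Igf1 was found in 61.7% of members of either sex, and in 11.9% of male and 10.3% of female reference cells.

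The largest fold among the named genes belonged to Vax2os, an RNA antisense to the homeobox gene Vax2 (chr6:83692806-83712201, minus strand), at 37.7 CPM in male members against 0.598 CPM in male reference cells and 56.2 CPM in female members against 1.01 CPM in female reference cells. Its log2 folds were 5.98 and 5.80 in the male and female libraries. Whether reads were counted by strand is not given in the sources used here, so reads of the gene and of its partner on the other strand cannot be told apart with certainty. Nt5e, the ectonucleotidase CD73 that makes adenosine from AMP, was at 48.6 CPM in male members against 2.58 CPM in male reference cells, and at 55.2 CPM in female members against 2.64 CPM in female reference cells. Its log2 folds were 4.23 and 4.39. Transcription factors in this group were the Iroquois factor Irx1, with log2 folds of 4.06 in male and 3.95 in female cells, and the bZIP factor Hlf, with 3.98 and 4.03. Surface and matrix genes were Cd34, a sialomucin of progenitor and mesenchymal cells (3.08 and 3.12), and Matn4, a matrilin of the extracellular matrix (3.26 and 3.81). The others were the transposase-derived gene Pgbd5 (4.07 and 3.97), the myosin-binding protein gene Mybpc1 (3.61 and 3.90), Plac8 (3.58 and 4.18), the ubiquitin-conjugating gene Ube2ql1 (3.37 and 3.65) and the calmodulin-dependent phosphodiesterase gene Pde1a (3.02 and 3.53).

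The 12 genes named for the lowest folds included 8 homeobox, forkhead, zinc finger and AP-2 factors. Msx1, a homeobox factor of distal and BMP-exposed mesenchyme, was at 89.3 CPM in male members against 393.9 CPM in male reference cells, and at 95.4 CPM in female members against 415.4 CPM in female reference cells. Its log2 folds were -2.14 and -2.12. Msx2 had log2 folds of -2.40 in male and -2.26 in female cells, Dlx5 of -2.41 and -2.31, and Dlx6 of -2.70 and -2.05. Hoxa13, the most posterior gene of its cluster and needed together with Hoxd13 for outgrowth of the tubercle, was at 22.3 CPM in male members against 99.4 CPM in male reference cells and at 24.4 CPM in female members against 102 CPM in female reference cells. Foxf1, a forkhead target of Hedgehog signalling, had log2 folds of -2.39 and -2.26. Sp9, a zinc finger factor, had log2 folds of -2.26 and -2.27, and Tfap2a, an AP-2 factor, had -2.29 and -1.95. The BMP antagonist Nog had log2 folds of -2.12 and -1.89. The others were Igfbp7 (-2.22 and -2.25), the membrane glycoprotein gene Emb (-2.27 and -1.95) and Gm43376 (chr3:55890306-55936699, plus strand; -2.43 and -2.47), an RNA antisense to Nbea whose reads may be mixed with those of Nbea in the same way.

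**Figure D2:**
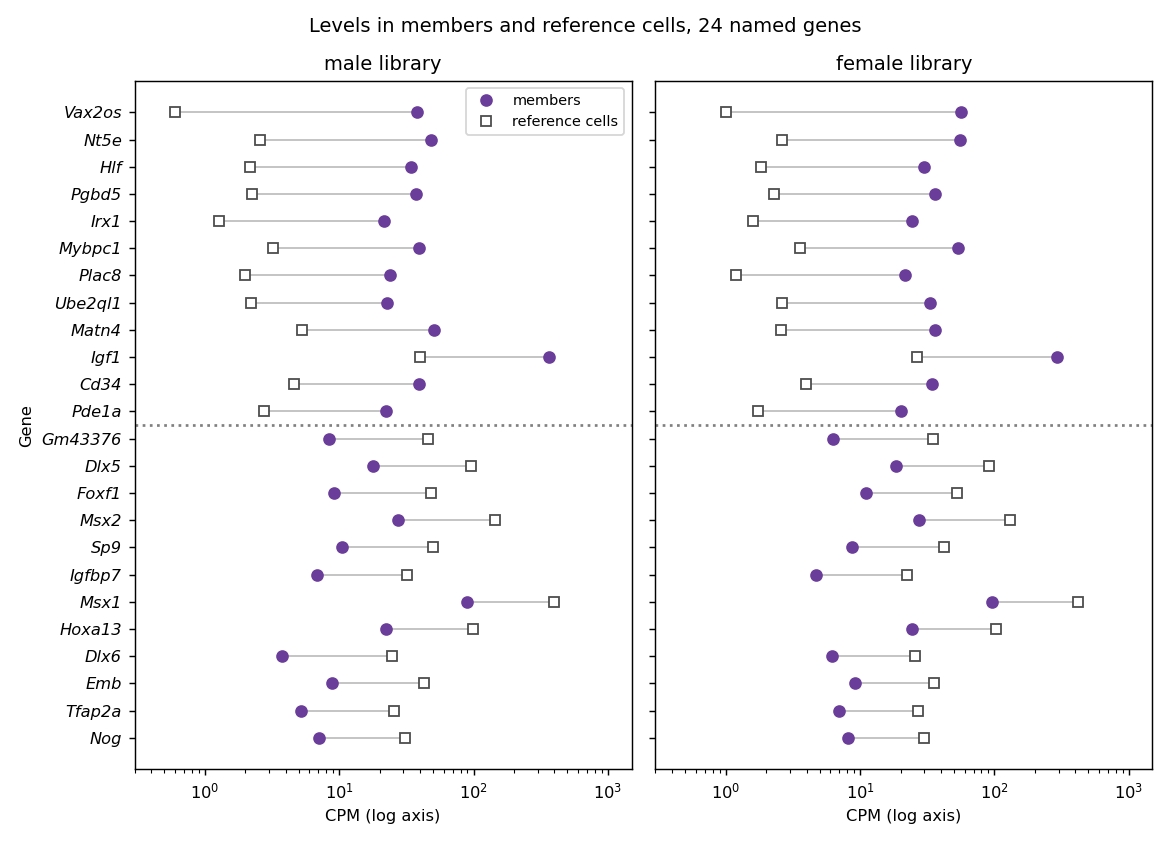
Levels in CPM (log axis) of the 12 highest and 12 lowest named genes, above and below the dotted line, in members (filled circles) and reference cells (open squares) of the male (left) and female (right) libraries. In both libraries the members lie right of the reference cells in the upper block and left of them in the lower block.

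**Figure D3:**
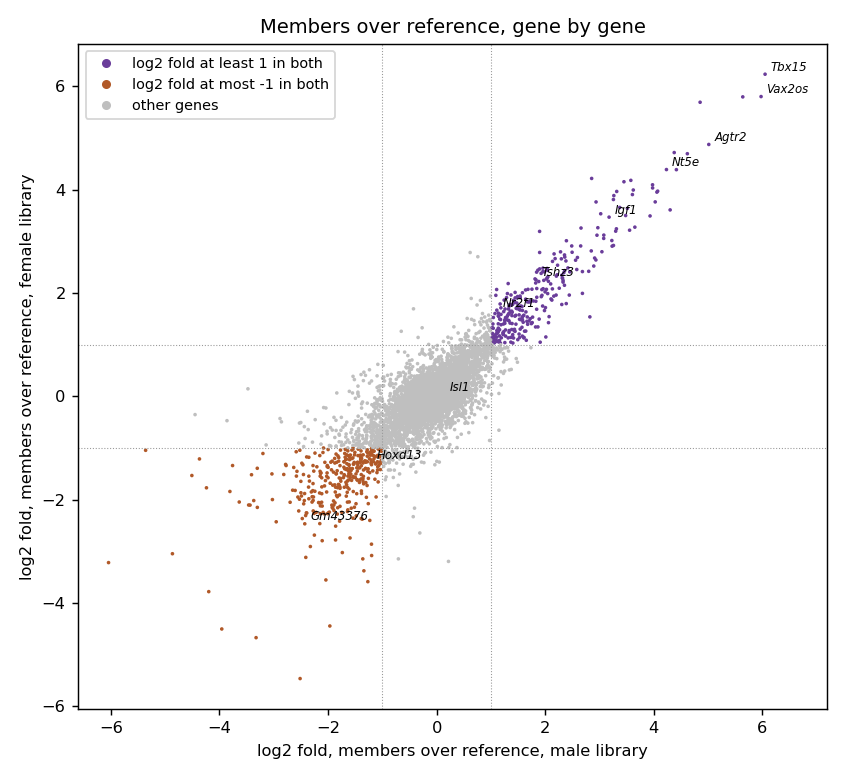
Log2 fold of members over reference cells in the male library (horizontal) and the female library (vertical) for 11987 genes. Dotted lines mark 1 and -1, and the coloured points past them in both libraries are the 287 higher and 334 lower genes.

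Among transcription factors, Tbx18 was higher. Apart from the rule gene Tbx15, it was the 1 higher gene of 5 T-box genes with enough counts, out of 11 listed. It was at 78.3 CPM in male members against 15.6 CPM in male reference cells and at 82.1 CPM in female members against 17.4 CPM in female reference cells. Tbx2, Tbx3, Tbx4 and Tbx5 had log2 folds below 0 in both libraries, between -0.85 and -0.36, and the median of the 5 was -0.73 in male and -0.51 in female cells. Sim1 needs an ARNT partner, and Arnt, a listed partner gene, was at like levels in both groups of cells. The level of Arnt2, also listed, is not given here. Arnt was at 27.5 CPM in male members against 27.0 CPM in male reference cells, and at 30.0 CPM in female members against 28.5 CPM in female reference cells. Apart from Sim1 itself, 8 of 13 listed bHLH-PAS genes had enough counts, of which none was higher and Ahr, the dioxin receptor, was lower (-1.35 and -1.43). The Sim1 paralogue Sim2 did not reach the count minimum and was at 5.53 CPM in male members against 0.55 CPM in male reference cells, and at 9.46 CPM in female members against 0.73 CPM in female reference cells.

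The posterior Hox genes were divided. Of 12 listed, Hoxa13, Hoxd11 and Hoxd13 were lower and none was higher. Hoxd13 was at 73.5 CPM in male members against 169.5 CPM in male reference cells, and at 80.6 CPM in female members against 196 CPM in female reference cells, log2 folds of -1.21 and -1.28. The 3 HoxC genes Hoxc9 (0.68 and 0.90), Hoxc10 (0.38 and 0.57) and Hoxc11 (0.73 and 1.01) had log2 folds above 0 in both libraries, while the 9 HoxA and HoxD genes were below 0 in both.

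Of 27 regional transcription factors with enough counts, out of 28 listed, 5 were higher and 10 lower. Higher were the TALE homeobox gene Meis1, at 314.5 CPM in male members against 88.6 CPM in male reference cells and 316.8 CPM in female members against 88.6 CPM in female reference cells, and the forkhead genes Foxp1 and Foxp2, the nuclear receptor gene Nr2f1 (COUP-TFI) and the zinc finger gene Tshz3. Foxp1 was at 236.8 CPM in male members against 81.5 CPM in male reference cells and at 353.5 CPM in female members against 94.2 CPM in female reference cells, log2 folds of 1.54 and 1.91. Nr2f1 had log2 folds of 1.11 and 1.67, and Tshz3 of 1.83 and 2.25. The lower factors included paired-type homeobox genes, Alx1 (-1.57 and -1.63), Alx4 (-1.22 and -1.14), Prrx2 (-1.30 and -1.26) and Pitx1 (-1.47 and -1.39). They also included the transcriptional coactivator gene Eya1 (-1.83 and -1.95), Tfap2a and Tfap2b. Isl1, a LIM homeobox factor of the tubercle, was at 446.8 CPM in male members against 406.6 CPM in male reference cells and at 467.9 CPM in female members against 454.9 CPM in female reference cells.

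In BMP signalling, secreted ligands are held back by antagonists, and Msx, Dlx and Id genes respond to the signal that remains. Of 16 ligands and antagonists with enough counts, out of 20 listed, Grem1 and Nbl1 were higher and Bmp3, Bmp4, Bmp7, Nog and Bambi were lower. Grem1, an antagonist of BMP2 and BMP4, was at 93.4 CPM in male members against 12.05 CPM in male reference cells and at 138.7 CPM in female members against 16.0 CPM in female reference cells, log2 folds of 2.95 and 3.12. Bmp4 was at 20.7 CPM in male members against 64.1 CPM in male reference cells and at 20.4 CPM in female members against 59.5 CPM in female reference cells. All 10 response genes had log2 folds below 0 in both libraries, with medians of -1.01 and -1.09, and 4 of them, Msx1, Msx2, Dlx5 and Dlx6, were lower. The Id genes did not reach the fold in both libraries, and Id1 had log2 folds of -0.49 and -0.43. The summed level of the 10 was 1544 CPM in male members against 2966 CPM in male reference cells, and 1576 CPM in female members against 2899 CPM in female reference cells.

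Of 18 Wnt ligands and antagonists with enough counts, out of 22 listed, Wnt11 was higher and 5 were lower. Wnt11, a ligand of noncanonical signalling, was at 62.6 CPM in male members against 15.2 CPM in male reference cells and at 63.1 CPM in female members against 12.9 CPM in female reference cells. The lower genes were the ligand Wnt6 (-1.06 and -1.005), the secreted antagonist Frzb (-1.77 and -1.59), the R-spondin genes Rspo2 and Rspo3 (-1.72 and -1.58 for Rspo3) and the Wnt deacylase gene Notum (-1.39 and -1.52). Of 13 Wnt response genes 2 were higher and none lower. Nkd1, a feedback inhibitor, was at 194 CPM in male members against 74.4 CPM in male reference cells and at 167 CPM in female members against 68.2 CPM in female reference cells. Lgr5, an R-spondin receptor, had log2 folds of 1.64 and 1.88, and Axin2, a common readout of the canonical pathway, had 0.75 in male and 1.08 in female cells.

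In the Hedgehog list of 12 genes, the co-receptor gene Cdon was higher (1.40 and 1.78), and Foxf1 and the antagonist Hhip (-1.04 and -1.42) were lower. The target genes Ptch1 (-0.90 and -1.13) and Gli1 (-0.14 and -0.30) did not pass in both libraries. Of 14 FGF genes 3 were higher and 2 lower. Fgf18, a ligand, was at 25.5 CPM in male members against 5.81 CPM in male reference cells and at 24.6 CPM in female members against 5.81 CPM in female reference cells. The feedback genes Spry2 (1.33 and 1.24) and Dusp6 (1.49 and 1.69) were higher with it, and Fgf9 and the receptor gene Fgfr3 were lower. In the IGF list, 11 of 12 genes had enough counts. Igfbp3, a carrier of IGF1, was higher beside Igf1, at 271.8 CPM in male members against 65.2 CPM in male reference cells and 259.6 CPM in female members against 55.5 CPM in female reference cells, and Igfbp7 was lower. The receptor gene Igf1r had log2 folds of -0.71 and -0.47.

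In the retinoic acid list, 12 of 14 genes had enough counts. Stra6, a receptor for retinol uptake, was higher (1.95 and 1.75), and Aldh1a2, which makes retinoic acid, was lower, at 4.07 CPM in male members against 22.9 CPM in male reference cells and 4.96 CPM in female members against 18.9 CPM in female reference cells. Of 9 steroid genes with enough counts, out of 13 listed, the 5-alpha reductase gene Srd5a2 was higher. It was at 9.02 CPM in male members against 2.01 CPM in male reference cells and at 11.7 CPM in female members against 1.74 CPM in female reference cells. Inhba, an activin subunit gene, was higher too (1.02 and 1.33), and the estrogen receptor gene Esr1 was lower (-2.11 and -2.13), at 0.87 CPM in male and 0.69 CPM in female members.

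Agtr2 aside, the renin-angiotensin system was at like levels in both groups of cells. Of 14 other genes listed for it, 6 had enough counts and none was higher or lower, with median log2 folds of 0.0012 and -0.067. Their summed level was 281 CPM in male members against 278 CPM in male reference cells, and 269 CPM in female members against 271 CPM in female reference cells. Members of both libraries had 0 UMIs of Agt, the precursor of angiotensin, and of Ren1 and Mas1. A count of 0 allows up to 3 counts per library. Agtr1a, the type 1 receptor, had 2 UMIs in male and 4 UMIs in female members. Of the 8 partners of ezrin with enough counts, out of 9 listed, only Cd34 was higher. The other ERM genes were at like levels, with Rdx at 262 CPM in male members against 268 CPM in male reference cells and at 298 CPM in female members against 309.5 CPM in female reference cells.

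Among 20 guidance and adhesion genes, Nrp1, a receptor for semaphorins and VEGF, was higher. It was at 97.2 CPM in male members against 20.7 CPM in male reference cells and at 117.5 CPM in female members against 20.3 CPM in female reference cells. Unc5c, a netrin receptor, was lower (-1.39 and -1.60). Among 22 matrix genes 4 were higher, Col6a1 (1.05 and 1.05), Col14a1 (2.21 and 2.32), Dcn (1.44 and 1.82) and Lum, and none was lower. Lum, a proteoglycan of collagen fibrils, was at 220.0 CPM in male members against 59.1 CPM in male reference cells and at 209 CPM in female members against 22.9 CPM in female reference cells. Its fold differed between the libraries, with log2 values of 1.90 (1.81 to 1.98) and 3.19 (3.102 to 3.28), and the level in reference cells moved more than that in members.

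No cycling gene passed the fold. None of 15 S phase and 18 G2 and mitosis genes was higher or lower, with medians between -0.07 and 0.07. With each cell thinned to 4000 UMIs, 72.2% of male members and 71.7% of male reference cells had at least 3 UMIs of the S phase genes, and the female shares were 76.9% in members and 79.0% in reference cells. Without thinning the S phase shares were 86.7% against 83.6% in male and 87.5% against 89.1% in female cells. For the G2 and mitosis genes the thinned shares were 52.7% of male members and 50.8% of male reference cells. In the female library they were 54.4% of members (51.7 to 57.0) and 59.5% of reference cells (58.5 to 60.5), so the female members were lower beyond counting error. In the glycolysis and hypoxia list of 16 genes only Ndrg1 was higher (2.28 and 2.80). None of 16 dissociation stress genes was higher or lower, with medians of -0.30 in male and -0.03 in female cells.

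Markers of other cell types were mostly less abundant in members than in reference cells. The 6 smooth muscle markers summed to 48.6 CPM in male members against 168 CPM in male reference cells and to 25.3 CPM in female members against 70.8 CPM in female reference cells, with Actg2 at 0 in female members. The 10 immune markers summed to 1.60 CPM in male members against 30.8 CPM in male reference cells and to 6.71 CPM in female members against 14.6 CPM in female reference cells. The 9 erythroid markers summed to 2392 CPM in male members against 8283 CPM in male reference cells and to 6551 CPM in female members against 13428 CPM in female reference cells. Neuron markers went the other way, with 69.8 CPM in male members against 28.8 CPM in male reference cells and 88.5 CPM in female members against 30.5 CPM in female reference cells. Tubb3, a beta tubulin gene, made up most of that sum. In the cartilage and tendon list, Acan and Matn1 were at 0 in members while Matn4 was among the named genes. The part of other cell types in the gene folds was not tested.

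The levels of other genes differed with the number of rule genes detected, on both sides of the limit for members. The groups with 3 and 4 genes hold members only, 405 and 267 male and 576 and 415 female cells. They leave out 179 and 49 male and 248 and 66 female cells without Sim1 and Agtr2. The groups with 0, 1 and 2 genes hold all kept cells, so the makeup of the groups also changes at the limit. Whether the cells form a continuous range or separate groups was not tested. With cells thinned to 4000 UMIs, Igf1 was at 39.1, 41.9, 112, 292, 488, 428 and 683 CPM in male cells with 0, 1, 2, 3, 4, 5 and 6 rule genes detected, and at 22.8, 40.3, 108, 290, 357, 365 and 461 CPM in female cells. Grem1 was at 10.7 CPM in male and 12.4 CPM in female cells with none detected, and at 221 and 243 CPM in cells with all 6. Hoxd13 ran the other way, at 174 and 196 CPM with none detected and 9.62 and 20.6 CPM with all 6. Isl1 stayed between 403.5 and 538.5 CPM in male and between 424.5 and 529.8 CPM in female cells at every step. Cells with all 6 numbered only 26 and 109, and their levels rest on few UMIs.

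**Figure D4:**
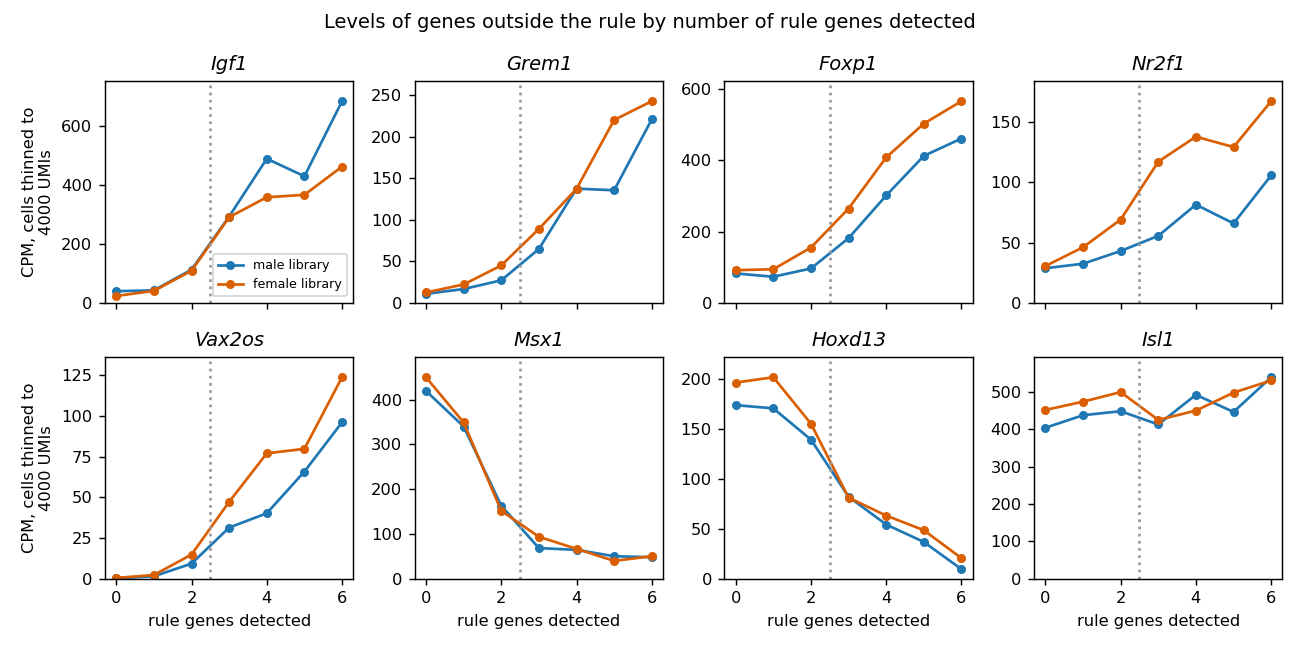
Level (CPM, cells thinned to 4000 UMIs) of 8 genes outside the rule in male and female cells by the number of rule genes detected, with the dotted line at the limit for members. Right of the line only members are included, and left of it all kept cells. Igf1, Grem1, Foxp1, Nr2f1 and Vax2os are higher, and Msx1 and Hoxd13 lower, in cells with more rule genes, while Isl1 stays between 403.5 and 538.5 CPM.

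Just inside the limit, the 405 male and 576 female members with exactly 3 genes had Igf1 at 276 and 227 CPM. Just outside, the 406 male and 564 female cells with 2 genes, Sim1 or Agtr2 among them, had Igf1 at 137.4 and 139.1 CPM. The 612 male and 844 female cells with 2 genes and neither Sim1 nor Agtr2 had Igf1 at 74.9 and 55.1 CPM. Vax2os was at 28.0 and 33.0 CPM inside and at 9.50 and 18.0 CPM outside. A further 228 male and 314 female cells had 3 or more genes without Sim1 or Agtr2. Those cells had Igf1 at 205 and 107 CPM but Foxp1 at 257 and 291 CPM, above the 161 and 222 CPM of the members with 3 genes.

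Members had more members among their neighbours than the other kept cells had, also with the 6 genes left out. Nearest neighbours were found in each library from 1984 variable genes without the 6 rule genes. Of the 15 neighbours of a member, on average 46.6% in male and 56.3% in female cells were members. The average was 1.43% and 1.75% around reference cells and 19.7% and 20.6% around cells in between, where members were 6.78% and 10.6% of all kept cells. Members made up the majority of the neighbours for 405 male (49.0%) and 868 female members (62.5%). At the other end, 6.65% of male and 3.82% of female members had no member among their neighbours. Since variable genes were chosen from the same cells, these shares are a description.

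Of 3 other mesenchymal groups set beside the members, 1 shared many cells with them. Cells with Rprm, Pcdh10 and Spock3 all detected made up 17.05% of male and 21.4% of female members, and members made up 13.2% of the 1068 male and 18.5% of the 1608 female cells of that group. In reference cells its share was 5.80% and 7.57%. With thinning the shares were 6.05% and 7.49% of members against 3.04% and 3.94% of reference cells. The cells of that group that were not members had Ezr at 104.2 CPM and Shox2 at 163 CPM in the male library, and 114.5 and 183 CPM in the female library. They differed from members in Igf1, at 37.3 and 32.1 CPM, in Vax2os, at 2.45 and 2.05 CPM, and in Grem1, at 16.6 and 22.9 CPM. Cells with Foxd1, Sall3 and Lbx2 all detected made up 0.605% and 1.44% of members, and had Igf1 at 38.6 and 34.9 CPM and Sim1 at 0.495 and 3.27 CPM. Cells with Ogn, Foxf1 and Npnt all detected made up 0.363% and 0.648% of members. Their Foxp1, at 169 and 229 CPM, came nearest to the level in members, while their Grem1 was at 5.83 and 13.4 CPM.

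Within the group, 357 male members (43.2%) had Sim1 without Agtr2, 264 (31.9%) had Agtr2 without Sim1 and 206 (24.9%, interval 21.995 to 28.0) had both. The female numbers were 550 (39.6%), 324 (23.3%) and 514 (37.0%, 34.5 to 39.6). The cells with both were deeper, with a median of 7726.5 male and 7994 female UMIs. Of 6223 genes that reached 100 summed UMIs in each library, 7 (0.112%) passed a fold of 1 on the log2 scale in both libraries. Of these, 6 (0.0964%, Sim1 itself included) were higher with Sim1 alone than with Agtr2 alone, and 1 was lower (0.0161%), Agtr2 itself. The genes on the Sim1 side were Gatm, which makes the precursor of creatine, the AMPA receptor gene Gria2, the zinc finger gene Gata6, the TEAD cofactor gene Vgll3 and Irx1. Gatm was at 77.1 CPM in male cells with Sim1 alone against 27.9 CPM in male cells with Agtr2 alone, and at 47.1 CPM against 19.7 CPM in the same order of female cells. Gria2 was at 107 CPM with Sim1 alone and 47.4 CPM with Agtr2 alone in the male library, and at 100.7 and 43.1 CPM in the female library. With cells thinned to 4000 UMIs before the rule was applied, 2 of these 7 genes, Sim1 and Agtr2 themselves, were still past the fold, of 2024 genes that reached the count minimum. The other 5 did not reach it, and each was below a log2 ratio of 1 in at least 1 library. Their thinned log2 ratios were between 0.30 for Gatm and 1.33 for Gata6 in male cells. In female cells they were between 0.51 for Gata6 and 2.11 for Vgll3. The interval included 0 in the male library for Gatm, Gria2, Irx1 and Vgll3, and in the female library for Gata6.

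On the Agtr2 side the largest differences were below that fold. The repulsive guidance gene Sema3a was at 37.1 CPM in male cells with Sim1 alone against 66.0 CPM in male cells with Agtr2 alone, and at 32.8 CPM against 77.1 CPM in female cells. Rprm, a p53-induced regulator of the cell cycle, had log2 ratios of Sim1 alone over Agtr2 alone of -0.995 and -0.74. Igf1 was on the Sim1 side (0.77 and 0.68). Nr2f1 had a ratio of -0.09 (-0.42 to 0.25) in the male library and 0.91 (0.67 to 1.15) in the female library, and the difference between the libraries was not tested.

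Members were a smaller part of the male than of the female library, 6.78% (exact interval 6.34 to 7.24) against 10.6% (10.03 to 11.09), a log2 ratio of -0.64 (-0.76 to -0.51). The male share was below the female share in each of 4 ranges of depth. It was 2.63% against 5.80% from 4000 to 5000 UMIs, 6.86% against 9.44% from 5000 to 7000, 9.30% against 11.2% from 7000 to 10000 and 12.1% against 18.96% above that. It did not hold in every range of mitochondrial share. In cells with at most 5% mitochondrial UMIs the male share was 11.4% of 848 cells and the female share 10.7% of 834, a log2 ratio of 0.10 (-0.33 to 0.53), while the male share was lower in the 4 ranges from 5% to 10%. With a single library of each sex, sex, embryo, dissection and library cannot be told apart here.

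Between the male and female members, 9879 genes reached 100 summed UMIs. Of these, 414 (4.19%) differed past 0.5 on the log2 scale with an interval that did not include 0. Among them 137 (1.39%) were higher and 277 (2.80%) lower in the male library. In reference cells the same limits gave 359 (2.78%) higher and 96 (0.744%) lower genes of 12907. With median-ratio size factors in place of totals, the split in members was 167 higher and 208 lower. With at most 5% mitochondrial UMIs, which left 97 male and 89 female members, the split turned round to 165 higher and 64 lower. The median log2 ratio over all genes was -0.046 in members and -0.0070 in reference cells.

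Nr2f1, Foxp1, Tshz3, Grem1 and Gsc were higher in members than in reference cells and lower in male than in female members. Nr2f1 was at 66.9 CPM in male and 115.5 CPM in female members, a log2 ratio of -0.79 (-0.94 to -0.64), against -0.23 in reference cells. Foxp1 had a log2 ratio of -0.58 (-0.66 to -0.50) in members and -0.21 in reference cells, and Tshz3 of -0.51 (-0.71 to -0.31) in members and -0.09 in reference cells. Grem1 had -0.57 in members and -0.41 in reference cells. Gsc, a homeobox gene, was at 21.4 CPM in male and 36.7 CPM in female members (-0.78), against -0.18 in reference cells, and it turned to 0.10 in members when only cells with at most 5% mitochondrial UMIs were used. A further 3 named genes did not pass the fold of members over reference in both libraries. Enpp2, the autotaxin gene that makes lysophosphatidic acid, was at 104 CPM in male and 181 CPM in female members (-0.80, -0.92 to -0.68), against -0.41 in reference cells. Chd7, a chromatin remodeller gene, had -0.69 in members and -0.49 in reference cells. Bcl11a, a zinc finger gene, had -0.72 in members and -0.27 in reference cells. In the male library Bcl11a was at 92.4 CPM in members against 106.5 CPM in reference cells, and in the female library at 152.7 CPM in members against 128.7 CPM in reference cells. Igf1 went the other way, with 0.30 (0.23 to 0.38) in members and 0.59 in reference cells. The difference between the ratios in members and reference cells was not tested.

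Of the 6 rule genes only Tbx15 differed past 0.5 on the log2 scale between male and female members. Tbx15 had a log2 ratio of -0.54 (-0.71 to -0.37) in members, Sim1 of -0.34 (-0.45 to -0.23), Shox2 of -0.19 and Agtr2 of -0.18 (-0.31 to -0.06). Sostdc1 had 0.00 and Ezr 0.16. In reference cells the ratios were -0.35 for Tbx15, -0.18 for Sim1, -0.26 for Shox2, -0.32 for Agtr2, 0.12 for Sostdc1 and 0.13 for Ezr. Members with 4 or more rule genes were 3.46% of kept male and 6.17% of kept female cells. Level per cell and makeup of the group therefore cannot be told apart in the ratios of members. Of 25 regional transcription factors with enough counts 7 were lower in the male library and none higher, with a median of -0.29 in members and -0.11 in reference cells, and of 11 posterior Hox genes 2 were lower, with a median of -0.26 in members and -0.08 in reference cells. The dissociation stress genes moved the same way between the sexes, with 3 of 13 lower and none higher, and a median of -0.27 in members and 0.015 in reference cells. Their part in the other ratios was not tested.

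**Figure D5:**
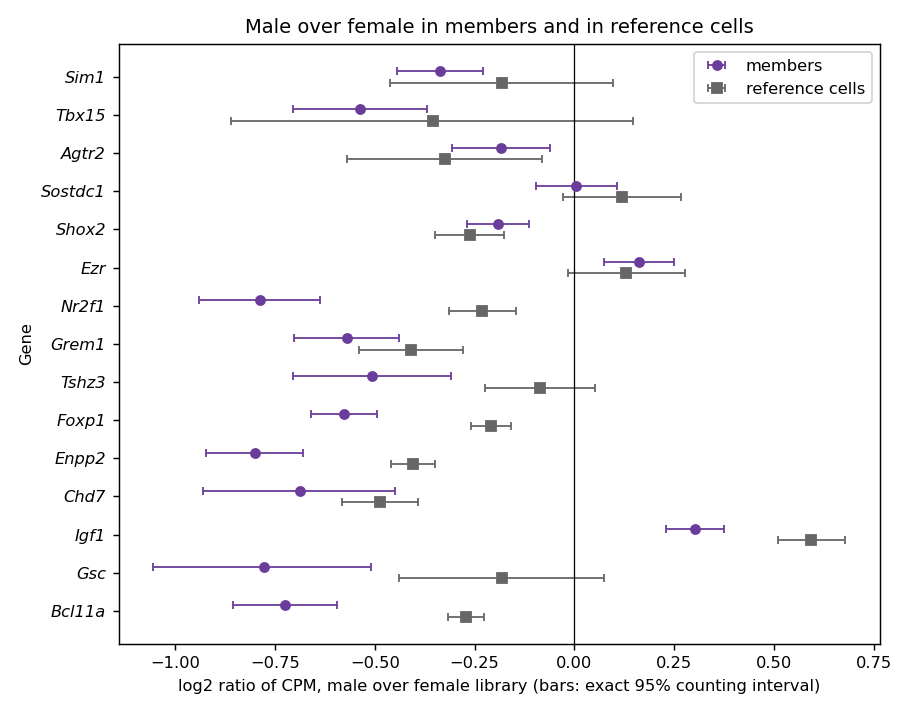
Log2 ratio of CPM, male over female, for 15 genes in members and in reference cells, with exact 95% counting intervals as bars. Nr2f1, Foxp1, Tshz3 and Enpp2 lie further below 0 in members than in reference cells, and Igf1 lies above 0 in both.

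Haemoglobin, histone, ribosomal and X-linked genes made up most of the other genes named for the widest ratios. Lowest in the male library were the haemoglobin genes, with Hbb-y at 839.6 CPM in male and 3608 CPM in female members (-2.10), Hba-x (-1.98), Hba-a1 (-1.72) and Hba-a2 (-1.34). The 10 members with the most haemoglobin held 81.2% of the haemoglobin UMIs of male and 61.5% of those of female members, while the median share per member was 0.0442% and 0.0542%. Kdm6a (-0.92) and Eif2s3x (-0.78) are X-linked genes that escape inactivation in the mouse. Highest in the male library were AY036118 (1.89) and Gm42418 (1.08), which overlap on opposite strands and cannot be told apart with certainty, and the leucyl-tRNA synthetase gene Lars2 (1.08). The histone genes Hist1h2ap (1.22) and Hist1h1e (0.78), the ribosomal protein-like gene Gm10076 (0.97), the glutathione transferase gene Gstp1 (1.04) and the dynein light chain gene Dynlt1a (0.80) belong to families of near-identical copies. Postn, a matricellular gene, had 0.79 in members and 0.62 in reference cells.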

How the data were processed

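The authors deposited raw UMI counts per gene and barcode, made with Cell Ranger 3.1 on mm10, per the file headers and the submitters' processing notes. The deposited count matrices list every barcode of the kit, and the annotation version is not given in the sources used here. Of 31053 gene IDs, 30934 matched GENCODE M21, which gave coordinates. Cells were kept and grouped as the report states. For a level, the UMIs of all cells in a group were added up and scaled to 1e+06 UMIs. Ratios had exact conditional intervals for a pair of Poisson counts, and shares of cells had exact Clopper-Pearson intervals, at 95%. These cover counting error only. No test was made, because each sex had 1 library, and the members and lists were chosen with earlier results of these data known.

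Genes named for members over reference were the 12 highest and 12 lowest by the fold nearer to 0, among genes that reached 200 summed UMIs and, in the higher group, 20 CPM. Genes named for male over female were the 10 highest and 10 lowest among genes that reached 100 summed UMIs and, in the higher library, 30 CPM, and those for the subsets the 6 furthest each way. Nr2f1, Grem1, Tshz3, Foxp1, Enpp2, Igf1 and Chd7 were always named. A few genes of the lists and of these rules are not reported here. Scrublet marked 0 cells at its automatic threshold and so had not worked, and doublets were not removed in the values reported. Leaving out the highest scores at 0.8% per 1000 cells, 1368 male and 1555 female barcodes, was an alternative. The fold computation was tested on simulated data. Neighbours used 30 principal components. Software was scanpy 1.11.5, numpy 2.4.6, scipy 1.17.1, pandas 2.3.3, scikit-learn 1.9.0 and matplotlib 3.10.9.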

Additional observations from a re-analysis of the deposited data

Results flagged for a closer look

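For 7 genes of the fixed lists, the log2 fold of members over reference had opposite signs in the libraries, with intervals that did not include 0 in either. The difference between the libraries was not tested in any of them, and all were under 0.5 in size. The stress genes Fos (-0.34 in male and 0.25 in female cells) and Egr1 (-0.19 and 0.34) were the widest apart. The forkhead gene Foxf2 had 0.13 and -0.074, and the ribonucleotide reductase gene Rrm2 had 0.15 and -0.14. The zinc finger gene Zfhx3 had -0.14 and 0.18, the cadherin gene Cdh11 -0.075 and 0.10 and the fibulin gene Fbln2 -0.18 and 0.12.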

How the results depend on the processing

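The share of members moved with each limit that sets detection. It was 9.90% of male and 13.6% of female cells (log2 ratio -0.46) with at least 6000 UMIs, 5.29% and 8.37% with at least 2000 UMIs, and 3.32% and 6.02% (-0.86) with cells thinned to 4000 UMIs and filtered again. It was 3.46% and 6.17% (-0.83) with 4 or more genes, 10.1% and 14.8% with 2 or more, 4.85% and 8.58% (-0.82) without Ezr in the rule, and 4.02% and 6.88% (-0.78) without Shox2, a setting added after seeing the data. It was 6.21% and 9.52% with the highest Scrublet scores left out, and 9.82% in the female library without cells over 15000 UMIs. With at most 5% mitochondrial UMIs the male share was 11.4% and the log2 ratio reversed to 0.10, with 101 higher and 68 lower genes in members over reference, 165 genes higher and 64 lower in male members, the balance turned round from 137 and 277, and Gsc reversed to 0.10. Fewer cells were left there, and the cause of the reversal was not tested. With a summed count of at least 500, which leaves fewer genes, 135 genes were higher and 164 lower in members, and 21 were higher and 60 lower in male members. Members made up the majority of the neighbours for 45.5% of male and 59.7% of female members with 30 neighbours, and for 44.7% and 59.0% in thinned cells, a setting added after seeing the data. With thinned cells, also added, 1 gene was higher with Sim1, which was Sim1 itself. Gatm, Gria2, Irx1, Vgll3 and Gata6 did not reach the count minimum there. Each of them was also below a log2 fold of 1 in at least 1 library. Of 480 values of 30 named genes over 16 settings in members over reference, 142 moved beyond their interval and 0 reversed, and of 425 values of 25 genes over 17 settings in male over female, 88 moved and 1 reversed, which was Gsc. No paired analysis was possible because each sex had 1 library, so that the groups share fewer than 2 replicate numbers, and no library could be left out. A gene at 0 counts could hold up to 3 counts.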
